A study of Homo sapiens with 4 samples.

Results

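The BACH1-bound regions described here lie on the long arm of chromosome 11, over bands 11q12 to q13, between 58 and 77 Mb on the hg19 build. The members are all rows of the deposited peak lists of Calu3 and 16HBE14o- whose summit falls in these 19 Mb. They number 241 of the 13661 rows of the lists together, with 133 of 3415 in 16HBE14o- and 108 of 10246 in Calu3. The interval was chosen by its number of regions in these lists, so the counts that set it apart are given as a description and carry no test. Chromatin immunoprecipitation sequencing (ChIP-seq), which sequences the DNA that a protein holds, was done with the same rabbit antibody against BACH1 in both lines, and both were grown in the same serum-containing medium with no agent named in the labels. Calu3 derives from a human lung adenocarcinoma, and 16HBE14o- from immortalised human bronchial epithelium. There were 2 replicates per line, which the authors combined into 1 list per line, so no value has a replicate error and no difference between the lines could be tested.

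BACH1 belongs to the basic leucine zipper family and forms dimers with small MAF proteins. It binds antioxidant response elements, where it competes with NRF2 and represses genes of haem breakdown, iron storage and redox defence, and haem releases it from DNA. In airway epithelium the same elements serve the response to inhaled oxidants, and the study asked whether BACH1 takes part in the regulation of CFTR, which is on another chromosome. The long arm of chromosome 11 is known for its many closely packed genes, among them FTH1 (the heavy chain of the iron store ferritin), GSTP1 (a glutathione transferase), PRDX5 (a peroxiredoxin), PC (pyruvate carboxylase), FOSL1 (a subunit of AP-1), RELA (a subunit of NF-kB), the nuclear RNA genes NEAT1 and MALAT1, and CCND1 (cyclin D1).

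Of 60 gene names listed for this stretch, all matched the RefSeq table of GRCh38.p14 and 59 were on chromosome 11 there, the exception being CLCN3. EPS8L2 and TRPM5 came first in that order, on the short arm. That table orders them as FADS1, FADS2, FADS3, BEST1 and FTH1, later PRDX5, MEN1, NEAT1, MALAT1, RELA, OVOL1 and FOSL1, then PC, GSTP1 and CPT1A, and last CCND1, ANO1, CTTN, UCP2 and PAK1. The table gives order only. The peak lists are on hg19, so no region was assigned to a gene, and no sequence is given for the regions.

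Signals are used only to rank a region within its own list. For Calu3 the value was read as a fold enrichment from the file format and the range of values, since no source used here names its unit or the peak caller, and it is called so below. For 16HBE14o- it is a peak signal on an unstated scale. A percentile of 100 is the strongest region of a list. Regions of 16HBE14o- were 240 bp wide in 126 of 131 cases after overlapping rows were merged, whereas those of Calu3 ran from 153 to 756 bp (median 257.5). The cell line and the way its list was made cannot be told apart. Read depth is unknown, so a region missing from a list was not detected there at an unknown depth.

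The interval took up a larger share of the 16HBE14o- list than of the Calu3 list, with similar numbers of regions per Mb. After merging, the interval held 131 regions of 16HBE14o-, 3.86% of that list (95% exact binomial interval 3.24 to 4.56), or 6.89 per Mb. It held 108 regions of Calu3, 1.05% of that list (interval 0.865 to 1.27), or 5.68 per Mb. The share was 3.66 times as high in 16HBE14o-. Over the rest of chromosome 11 the shares were 2.53% and 2.77%, a ratio of 0.914. Outside these 19 Mb, chromosome 11 thus held no larger share of the 16HBE14o- list than of the Calu3 list. Among the 500 strongest regions of each list, the interval held 15 of 16HBE14o- (3.0%) and 7 of Calu3 (1.4%). These intervals cover counting error only, and neighbouring regions are not independent.

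In all, 38 regions of each list met one of the other by at least 1 bp, each with 1 counterpart. In 16HBE14o- this was 29.0% of the interval's regions (exact interval 21.4 to 37.6), against 46.5% of the whole list and 47.2% (45.5 to 49.0) of the list outside the interval. In Calu3 it was 35.2% (26.2 to 45.0), against 15.3% of the whole list and 15.1% (14.4 to 15.8) outside. The regions of 16HBE14o- in the interval were thus less often shared, and those of Calu3 more often, than in the rest of their lists, and neither difference was tested. The same 38 pairs are divided here by the number of regions of each list in an interval that was chosen by its number of regions. An interval rich in 16HBE14o- regions itself favours a lower 16HBE14o- share and a higher Calu3 share than in the rest of the lists. How far the choice accounts for the differences was not tested. Without the step from 65 to 66 Mb the shares were 33.0% (23.5 to 43.6) and 30.9% (21.9 to 41.1). In that step 8 of 40 regions of 16HBE14o- (20%) and 8 of 11 of Calu3 (72.7%) were shared.

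**Figure D1:**
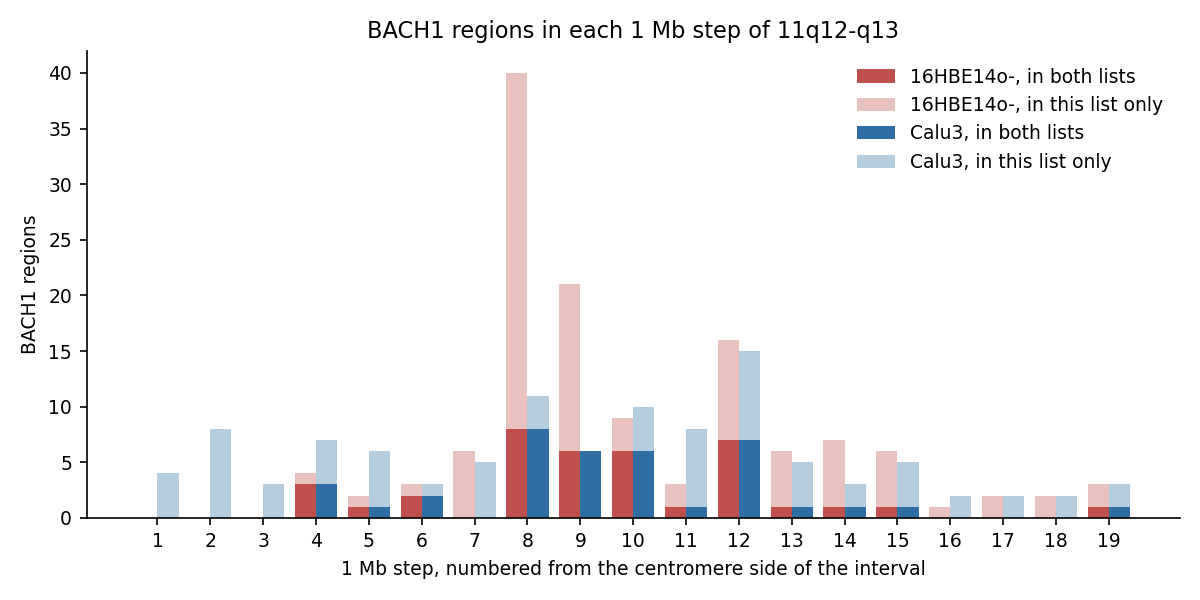
Number of BACH1 regions in each 1 Mb step of the interval, with step 1 starting at 58 Mb and step 19 ending at 77 Mb. Dark bars are regions that met one of the other list and pale bars those in one list only; step 8 (65 to 66 Mb) holds 40 regions of 16HBE14o- against 11 of Calu3, and steps 1 to 3 hold regions of Calu3 only.

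From 58 to 61 Mb the list had 0 regions while Calu3 had 15, with 4, 8 and 3 in the successive steps of 1 Mb. The absence was part of a longer stretch: between the summits at 47968659 and 61348959, which spans the centromere and 13.4 Mb, 16HBE14o- had none and Calu3 had 24, of which 16 lay inside the interval. The list of 16HBE14o- held 16 longer gaps, 2 of them on chromosome 11. The 15 Calu3 regions before 61 Mb had a median percentile of 43.6. The strongest of them was chr11:59524393-59524753, with a fold enrichment of 13.1 and rank 579.

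From 61 to 65 Mb each step held fewer regions of both lines than the step that begins at 65 Mb. The step from 61 to 62 Mb held 4 regions of 16HBE14o- and 7 of Calu3, of which 3 pairs were shared. The next step held 2 and 6 with 1 pair, and that from 63 to 64 Mb held 3 and 3 with 2 pairs. From 64 to 65 Mb there were 6 regions of 16HBE14o- and 5 of Calu3, and none met. The nearest approach in that last step was 8.80 kb, between the summit of the 16HBE14o- region chr11:64090464-64090703 and a Calu3 summit.

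The step from 65 to 66 Mb held 40 regions of 16HBE14o- and 11 of Calu3. No other 1 Mb step of the genome held as many regions of 16HBE14o-, among 2421 steps with a region of either list. The next were the steps from 48 Mb and 49 Mb on chromosome 20, with 30 and 26, the step from 87 Mb on chromosome 3 with 24, and the neighbouring step from 66 Mb on chromosome 11 with 21. In steps that held any, 16HBE14o- had a median of 2 regions. The step from 65 Mb ranked 101 by its number of Calu3 regions. By the difference between the lists, 16HBE14o- minus Calu3, the steps from 65 and 66 Mb ranked 1 and 4, with 29 and 15.

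Towards the telomere the difference in counts narrowed after 67 Mb. From 66 to 67 Mb 16HBE14o- had 21 regions and Calu3 had 6, and all 6 of Calu3 were shared. From 67 to 68 Mb they had 9 and 10 with 6 pairs, from 68 to 69 Mb 3 and 8 with 1 pair, and from 69 to 70 Mb 16 and 15 with 7 pairs. The step from 69 Mb was the fullest of the interval in Calu3 and the only one besides 65 and 66 Mb with more than 10 regions in 16HBE14o-. The 3 steps from 65 to 68 Mb together held 70 regions of 16HBE14o- and 27 of Calu3, and 20 of the 38 shared pairs.

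Beyond 70 Mb the counts fell. The steps from 70, 71 and 72 Mb held 6, 7 and 6 regions of 16HBE14o- and 5, 3 and 5 of Calu3, with 1 pair in each. From 73 to 76 Mb there were 5 regions of 16HBE14o- and 6 of Calu3 and none was shared. The last step held 3 of each with 1 pair. At the limits of the interval, the last Calu3 regions below and the first above 58 Mb had summits at 57740819 (fold enrichment 2.42) and 58213940 (4.67), and those around 77 Mb were at 76499897 (3.86) and 77010653 (23.9). For 16HBE14o- the last inside was at 76572007 (signal 23.0) and the first beyond at 77313636 (signal 21.0).

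The strongest site of the interval was common to both lines. The region chr11:66659698-66659896 of 16HBE14o- ranked 3 in its list with a signal of 311, and its counterpart chr11:66659441-66660039 ranked 3 in Calu3 with a fold enrichment of 52.1. The summits were 21 bp apart. The second site, chr11:61739422-61739591, ranked 15 in 16HBE14o- (signal 212) and 10 in Calu3 (44.7), with summits 10 bp apart. Both regions were narrower than 240 bp in 16HBE14o-, at 199 and 170 bp, and wider than the other Calu3 regions named here, at 599 and 679 bp. The next pair by combined rank stood at percentiles 97.1 and 97.7.

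The 8 pairs that followed lay between 61 and 70 Mb. The pair chr11:65666731-65666970 ranked 99 in 16HBE14o- (signal 112) and 234 in Calu3 (fold enrichment 18.7). The pair chr11:69235376-69235615 ranked 83 and 294, with 120 and 17.2. The pair chr11:67351076-67351315 ranked 168 and 255, with 91.4 and 18.3, and its summits were 5 bp apart. These 3 pairs and the next by combined rank were in the upper 5% of each list.

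The other 5 included that next pair. The pair chr11:66830060-66830299 ranked 145 in 16HBE14o- and 365 in Calu3, and chr11:65249146-65249385 ranked 82 and 547. The pair chr11:67141920-67141996, only 77 bp wide in 16HBE14o-, ranked 58 there with a signal of 140 and 657 in Calu3 with a fold enrichment of 12.4. The pairs chr11:69069136-69069375 and chr11:61812148-61812387 ranked 276 and 663, and 612 and 368. The last was the only one of the 10 that stood over 10 percentile points higher in Calu3 than in 16HBE14o-, at 96.4 against 82.0. In all 10 the summits lay within 42 bp of each other.

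The 10 strongest regions of 16HBE14o- in the interval were all shared, and 9 of the 10 strongest of Calu3 were, the exception being chr11:59524393-59524753. Strong regions were often shared throughout the lists, with 453 of the 500 strongest of 16HBE14o- and 323 of the 500 strongest of Calu3. Beyond the 8 regions that belong to the best pairs, the top 10 of 16HBE14o- held chr11:67147138-67147377 (rank 108, signal 106) and chr11:66717596-66717835 (rank 163, signal 92.4). Their counterparts stood at percentiles 77.7 and 80.3 of the Calu3 list, with ranks 2289 and 2013 and fold enrichments of 6.66 and 7.19. In 16HBE14o- the same sites stood at percentiles 96.8 and 95.2. Ranks from lists of different length do not show whether binding differed.

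**Figure D2:**
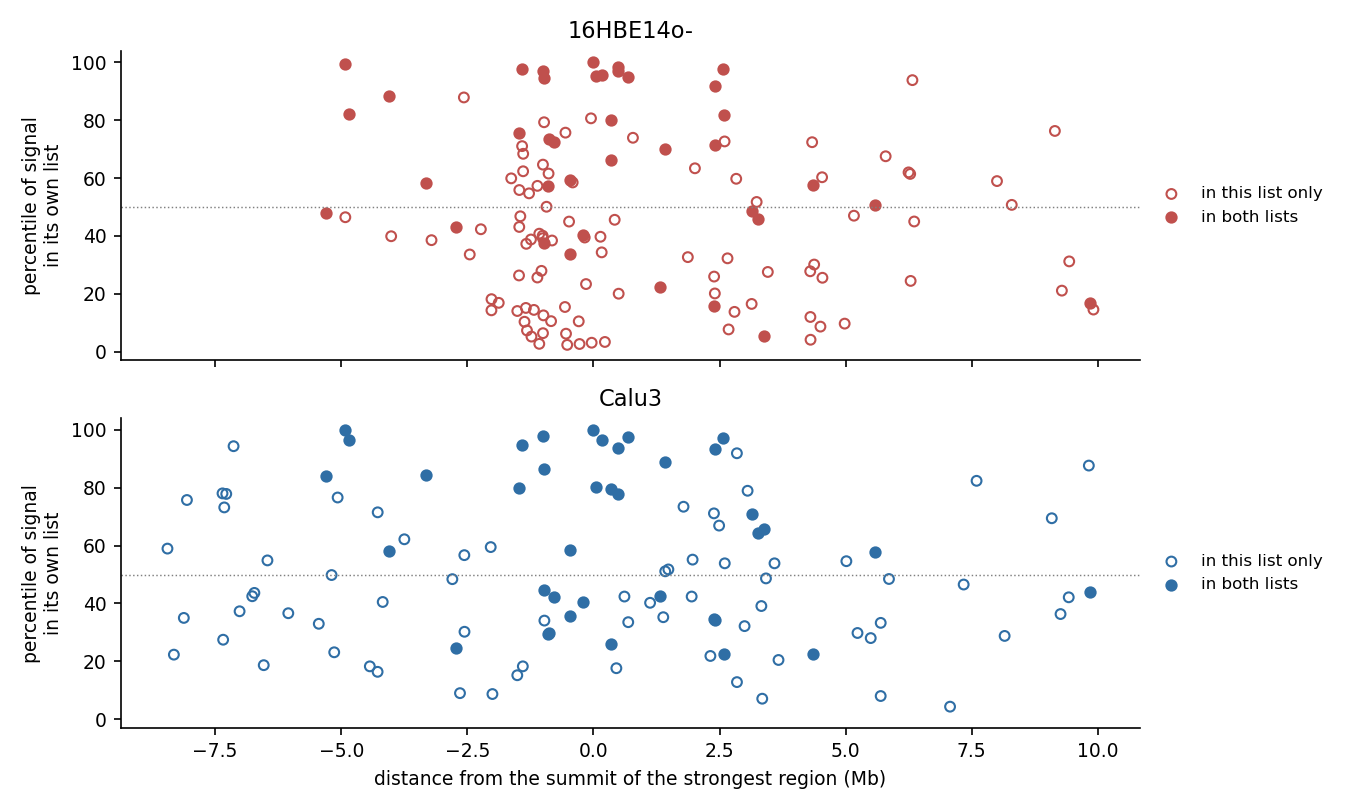
Percentile of signal of each region in its own list (100 is the strongest) against the distance in Mb of its summit from that of the strongest site, for 131 regions of 16HBE14o- and 108 of Calu3. Filled points are shared and open points are in 1 list only. In 16HBE14o- the points crowd around and just before the strongest site. Most of them are open there and most lie below percentile 50, as over the whole interval. On the left edge Calu3 alone has points.

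Both weak and strong regions lay in the interval. The median percentile was 43.1 in 16HBE14o-, against 50.3 in the rest of that list, and 47.5 in Calu3, against 50.03 in the rest. Of the regions of 16HBE14o-, 23 (17.6%) were in the strongest 25% of the list, against 25.3% of those outside the interval, and 13 were in the top decile (9.92%). Of the Calu3 regions, 27 (25%) were in the strongest 25% and 12 in the top decile (11.1%). A deposited q of 0.05 or more was given to 27 Calu3 regions (25%, against 26.7% of the whole list). The highest value of the score in the ninth column of 16HBE14o-, 3.34, was held by 31 regions (23.7%, against 31.1%).

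To compare regions of like strength, each list was divided by signal into 4 classes of equal size, with class 4 the strongest. In class 4 of 16HBE14o-, 17 of 23 regions were shared (73.9%, interval 51.6 to 89.8), against 84.7% (82.1 to 87.1) outside. In class 3, 10 of 33 were (30.3%, 15.6 to 48.7) against 52.5% (49.0 to 56.0). In class 2 it was 7 of 38 (18.4%, 7.74 to 34.3) against 32.0%, and in class 1, 4 of 37 (10.8%, 3.03 to 25.4) against 19.0%. The exact intervals of classes 4, 2 and 1 included the share outside. The share in the interval was the lower in all 4 classes, which, as for the shares over all strengths, the choice of an interval rich in 16HBE14o- regions itself favours.

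In Calu3 the order was the opposite. In class 4, 18 of 27 regions were shared (66.7%, 46.0 to 83.5), against 36.1% (34.3 to 38.1) outside. In class 3, 6 of 23 were (26.1%, 10.2 to 48.4) against 12.1% (10.9 to 13.5), in class 2, 11 of 39 (28.2%, 15.0 to 44.9) against 7.62% (6.62 to 8.73), and in class 1, 3 of 19 (15.8%, 3.38 to 39.6) against 4.63% (3.85 to 5.52). The share was the higher in all 4 classes, which the same choice favours. The exact intervals of classes 3 and 1 included the share outside.

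**Figure D3:**
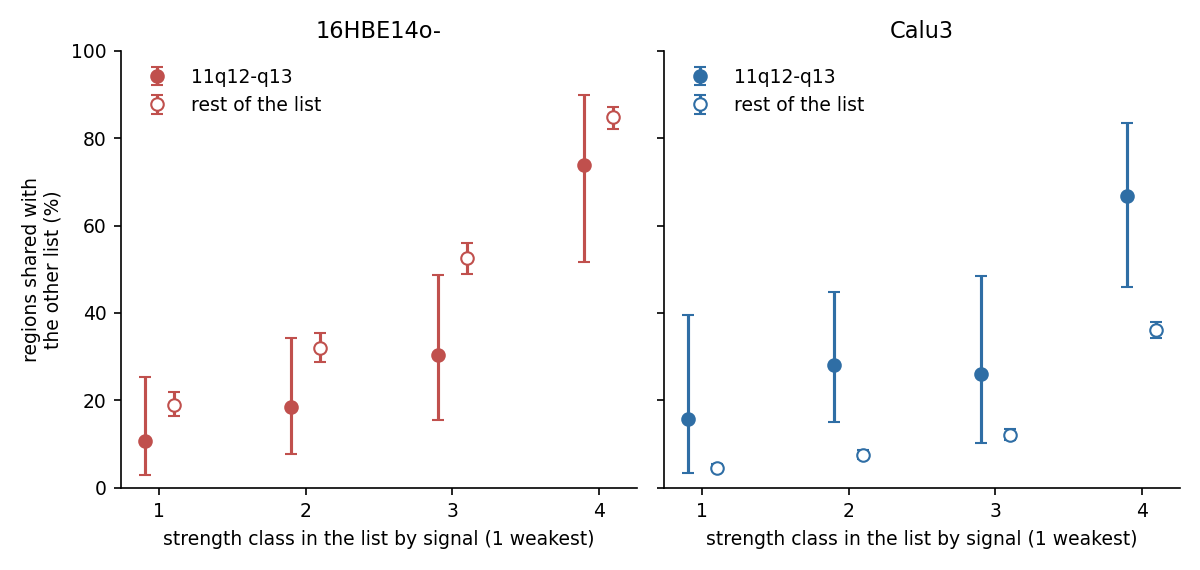
Share of regions that met one of the other list, in each of 4 equal classes of the list by signal (1 is the weakest), with 95% exact binomial intervals. Filled points are the interval and open points the rest of the list; in 16HBE14o- the filled points are the lower ones in all 4 classes and in Calu3 the higher ones.

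Shared regions were the stronger ones within each list. In 16HBE14o- the median percentile was 71.9 for the 38 shared and 37.3 for the 93 unshared regions. The difference was 34.7 points, against 38.3 in the rest of that list. In Calu3 it was 68.4 for the 38 shared and 42.3 for the 70 unshared, a difference of 26.2 points, against 37.3 in the rest of that list. Shared Calu3 regions had a median width of 324 bp and unshared ones 247 bp, against 325.5 and 224 bp in the rest of that list. Of the 15 regions of 16HBE14o- among the 500 strongest of the list 13 were shared, and of the 7 of Calu3 all were. Over the whole lists, 453 of the 500 strongest of 16HBE14o- and 323 of the 500 strongest of Calu3 were shared.

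The 38 pairs spanned nearly the full range of strength. In 16HBE14o- they lay from percentile 5.54 to 99.9, and in Calu3 from 22.4 to 99.98. Both members were in the upper 50% of their lists in 19 pairs and both in the lower 50% in 6. In 8 pairs only the 16HBE14o- member was in the upper 50%, and in 5 only that of Calu3. The widest differences were at chr11:69251944-69252183, with percentile 81.9 in 16HBE14o- and 22.4 in Calu3, and at chr11:70049976-70050215, with 5.54 and 65.9. Spearman's rho of the percentiles was 0.65 over the 38 pairs, against 0.53 over the 1579 pairs of the whole list. The 38 pairs lie on the same chromosome arm and are not independent. The summits were 1 to 519 bp apart (median 34.0), against a median of 18 over the 1579 pairs of the whole list. They were within 50 bp in 25 pairs, and in 5 over 100 bp apart.

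**Figure D4:**
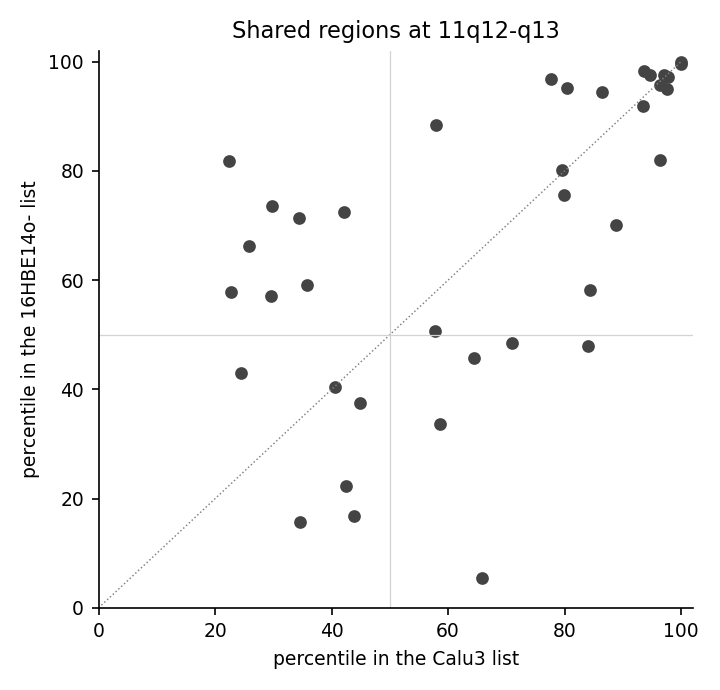
Percentile of signal of the 38 shared regions in the Calu3 list (horizontal) and in that of 16HBE14o- (vertical), where 100 is the strongest region of a list and the dotted line marks equal percentiles. The pairs strongest in both lists gather at the upper right, and 8 pairs at the upper left are in the upper 50% of 16HBE14o- only.

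Several shared sites came as neighbours. Because sharing requires overlap, the gaps between such sites must be close in both lists, and they are given to show the layout. The summits at 67141957 and 67147258 were 5301 bp apart in 16HBE14o-, and the matching Calu3 summits 5259 bp. Those at 66185669 and 66189249 were 3580 and 3556 bp apart, and those at 67007523 and 67016268 were 8745 and 8787 bp apart. Starting at 69048620, 69065056 and 69235496, gaps of 16436, 4200 and 16568 bp in 16HBE14o- were 16414, 4126 and 16532 bp in Calu3. At 65666851 to 65670831 the gaps differed by 284 bp, and the weaker of the shared sites there had its own summits 242 bp apart.

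The strongest regions without a counterpart, none of which had a summit of the other list within 500 bp, lay in different places. In 16HBE14o- these were chr11:72983107-72983346 (rank 210, signal 85.6), with the nearest Calu3 summit 465 kb away, chr11:64090464-64090703 (rank 413, signal 61.4), chr11:66610766-66611005 (rank 658, signal 47.3), chr11:65680451-65680690 (rank 704, signal 45.9) and chr11:75807660-75807899 (rank 806, signal 43.0). The one at 65680451 had a Calu3 summit 2.75 kb away. The first stood in a window of 100 kb with 4 regions of 16HBE14o- and none of Calu3.

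In Calu3 the strongest were chr11:59524393-59524753 (rank 579, fold enrichment 13.1), 1824 kb from the nearest summit of 16HBE14o-, chr11:69503299-69503738 (rank 828, 11.2), chr11:76480783-76481127 (rank 1264, 9.18), chr11:74255081-74255405 (rank 1805, 7.64) and chr11:69715330-69715654 (rank 2157, 6.88). The one at 69503299 was 13.3 kb from a summit of 16HBE14o- and 1235 bp from a weak further Calu3 summit (fold enrichment 2.77). Their deposited −log10 q ran from 13.9 to 50.3. Over the interval, 32 of the 70 unshared Calu3 regions (45.7%) lay more than 100 kb from any summit of 16HBE14o-, against 73.1% in the rest of that list. Of the 93 unshared regions of 16HBE14o-, 21 (22.6%) lay that far from Calu3, against 35.2%. The choice of an interval dense in regions itself favours the lower shares of such distant regions.

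Regions of 16HBE14o- lay closer together here than elsewhere in their list, which the choice of a dense interval itself favours. The median distance from a summit to the next of the same list was 15302 bp, against 91477 bp in the rest of the list. A neighbour within 10 kb was found for 56 of the 131 regions (42.7%, against 18.0% of the whole list). For Calu3 the median was 52104 bp against 47487 bp, and 24 of the 108 regions (22.2%, against 23.0%) had such a neighbour. On a fixed grid of 100 kb, 18 windows held at least 3 regions of 16HBE14o-, with 76 of its 131 regions (58%), and 7 held as many of Calu3, with 24 of 108 (22.2%). In the whole lists such windows held 17.5% and 23.5% of the regions. Of the 7 such windows of Calu3 in the interval, 4 were also among the 18 of 16HBE14o-. The matching count over the whole lists was not made.

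The fullest windows of 16HBE14o- were chr11:65600001-65700000 with 10 regions, of which 3 were shared, chr11:65200001-65300000 and chr11:66100001-66200000 with 6 each, of which 1 and 2 were shared. Calu3 had 4, 2 and 2 regions there. In the first, the 16HBE14o- ranks ran from 99 to 3178 (signals from 20.8 to 112), and the summits lay within 54546 bp. In the second they ran from 82 to 3044 and in the third from 826 to 3315. The first and second windows thus held a site among the 100 strongest of the list beside others near its lower end.

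In Calu3 the fullest windows held 4 regions each and were chr11:59300001-59400000, chr11:65600001-65700000 and chr11:69000001-69100000. The first had no region of 16HBE14o- and fold enrichments from 3.25 to 6.73. The second had 10 of 16HBE14o- and fold enrichments from 3.49 to 18.7. The third had 5 of 16HBE14o-, and 3 pairs were shared there. Its strongest region, at rank 663, was shared.

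In the step from 65 to 66 Mb, most regions of 16HBE14o- were found in that list only, and these were weaker than the shared ones. The 8 shared regions had a median percentile of 74.6 in 16HBE14o- and 62.4 in Calu3, and the 32 found in 16HBE14o- only had a median of 39.0 (range 2.68 to 79.3). From class 1 to class 4 of strength, those 32 fell as 10, 11, 10 and 1. Of the 32, 20 had another 16HBE14o- summit within 10 kb, as had 25 of all 40 regions of the step (62.5%). The Calu3 list had no summit for 408 kb between 65259340 and 65666893, and 19 unshared regions of 16HBE14o- with ranks from 1074 to 3303 (signals from 18.3 to 37.3) lay there. The shared region of rank 99 also had its 16HBE14o- summit there, 42 bp before the Calu3 summit that ends the stretch. That stretch was chosen after its values were seen. The 3 Calu3 regions of the step without a counterpart had a median percentile of 18.3. All were within 10 kb of a 16HBE14o- summit, against 5.66% of the unshared Calu3 regions of the whole list. The many 16HBE14o- regions of the step themselves favour such closeness.

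**Figure D5:**
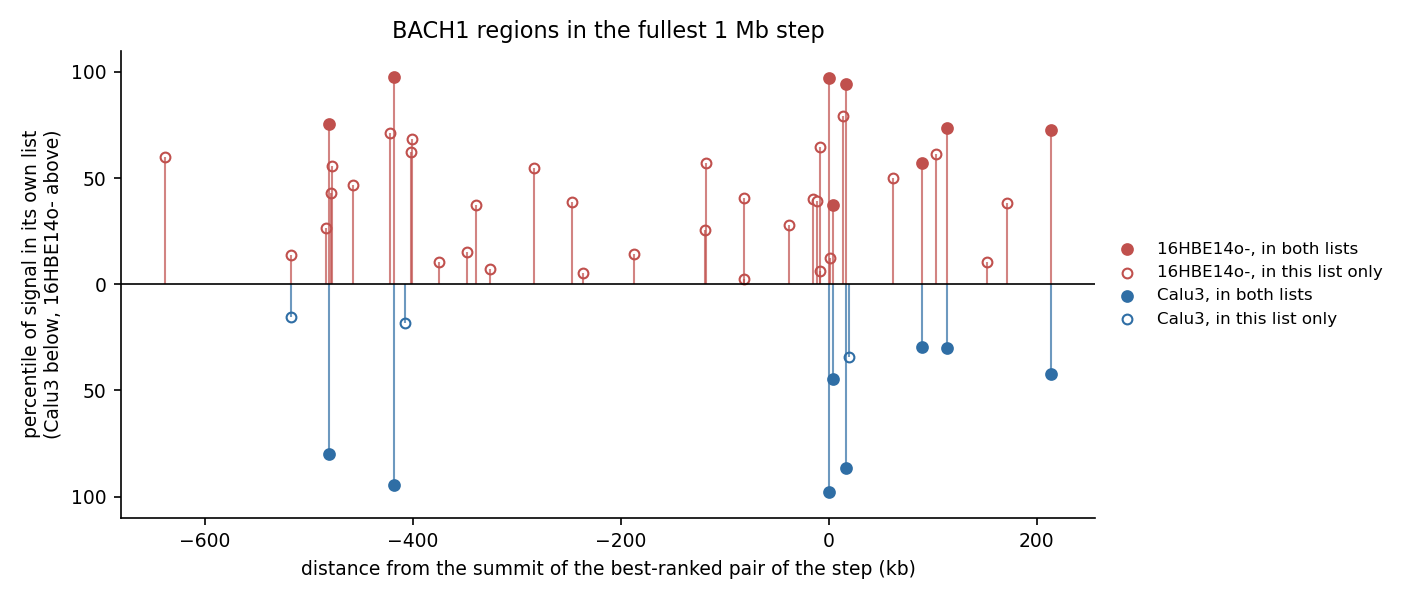
BACH1 regions of the step from 65 to 66 Mb by the distance in kb of the summit from that of its best-ranked pair, with the percentile of signal of 16HBE14o- drawn upwards and that of Calu3 downwards. The 8 shared sites (filled) stand opposite each other, and open 16HBE14o- regions fill a stretch where Calu3 has none.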

How the data were processed

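BACH1 ChIP-seq peaks came as 1 list per cell line. Per the labels and the design text, replicates were combined by IDR, a filter for peaks whose ranks are reproducible between replicates. Positions are on hg19 (per the submitters' processing notes). Which aligner, caller and control were used is not given in the sources used here. The Calu3 list as deposited by the authors has a ratio read as fold enrichment from the format and the values, a −log10 p and a −log10 q per peak, beside a browser score. The deposited 16HBE14o- list has a peak signal of unstated scale, a browser score and, in the ninth column, another score that goes below 0. Its eighth column is −1 throughout. All these values are the authors' own per peak.

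Overlapping rows of a list were merged (4 rows of 16HBE14o- into 2 regions), with the strongest row's signal and summit, and ranked by column 7. A region was shared if it met the other list by 1 bp. Steps and windows were assigned by summit. Coordinates are 1-based. Shares have 95% Clopper-Pearson intervals. No test was made, since each line has 1 list. The regions named were the 10 strongest per list, the 10 pairs of lowest rank sum, the 5 strongest without a counterpart per list, the 3 fullest windows and the fullest steps. The interval, the rule and the gene list were chosen with earlier results of these data known. Gene starts and motifs were not analysed here, since no hg19 annotation was used. Python 3.11.15, numpy 2.4.6, scipy 1.17.1 and pandas 2.3.3 were used. On 20 simulated list pairs with 40 planted shared regions, a mean of 40 was recovered. The planted regions were set to overlap, so this checked the code and not how well sharing was called in these lists.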

Additional observations from a re-analysis of the deposited data

How the results depend on the processing

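Of 36 alternatives to 8 results, 26 stayed within the exact interval of the main value, within 5 percentile points or, for counts, within 1.5 times, 10 moved beyond that and 0 reversed. With a reciprocal overlap of 50% the shared share was 16.0% in 16HBE14o- (38.9% in the rest of the list) and 19.4% in Calu3 (12.5%). Of the 17 pairs lost, 11 differed over 2-fold in width, so they could not meet that rule. With Calu3 cut to the length of the 16HBE14o- list, the shares were 14.5% (31.7%) and 55.9% (30.6%). The share in the interval stayed below that of the rest of the list in 16HBE14o-, and above it in Calu3, under all 6 settings of overlap, threshold, list length and merging. The choice of an interval rich in 16HBE14o- regions favours both directions, and all settings reuse these regions. That the settings agree is therefore no separate evidence. With the reciprocal overlap, the exact interval for Calu3 (12.46 to 28.2) included the 12.53% of the rest. Without the step from 65 to 66 Mb, chosen after seeing the data, the interval held 2.68% of the 16HBE14o- list. The percentile difference between shared and unshared Calu3 regions was 37.4 points with summits within 100 bp and 36.5 points among regions with a q under 0.05; the cause was not tested. In the upper 50% of each list, where fewer regions remain, 5 windows of 100 kb held 3 or more regions of 16HBE14o- and 1 window did of Calu3. With windows of 50 kb on the full lists, 3 windows held as many of Calu3. Ranking by the eighth column could not be run for 16HBE14o-, and the settings for motifs and gene starts were not run. No paired analysis was possible because the deposited lists hold both replicates of a line together, so a replicate block and the removal of single replicates were not run.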
